A study of Mus musculus with 8 samples.

Results

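The control transcriptome of inguinal preadipocytes was read from 3 RNA-seq libraries of male Tet3 f/f mice, which carry floxed Tet3 alleles and are labelled WT, after 6 weeks of high fat diet. The cells came from the stromal vascular fraction of inguinal white adipose tissue (iWAT, the subcutaneous fat of the groin) and were sorted as CD45-, CD31-, TER119- and PDGFRa+. That gate removes leukocytes, endothelial cells and erythroid cells and keeps cells with the alpha receptor for platelet-derived growth factor. All 3 libraries share genotype, sex, diet and gate, and no lean group is among them, so what the diet changed cannot be read from them. A gene counted as expressed when it had 10 or more counts in each of the 3 libraries, which held for 8941 of the 35976 genes listed, and genes were ranked by mean CPM (counts scaled to a common library size). Of the rest, 21315 had no count in any library and 5720 had counts but missed the minimum.

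Preadipocytes are the fibroblast-like cells of fat from which adipocytes form. They also build the collagen scaffold of the tissue, carry receptors for growth factors and hormones, and secrete factors that act on vessels, immune cells and fat cells. In mouse inguinal fat they are commonly divided into Dpp4- and Pi16-high progenitors, Icam1-high cells committed to the adipocyte fate, and F3-high cells that restrain adipogenesis in culture. Sorting by PDGFRa takes all of these together, so each library is a mixture, and fewer cells of a type cannot be told apart from less RNA per cell.

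The libraries held 2106900, 2374978 and 2002250 counts, and genes that passed took at least 98.6% of them in each. A count of 0 allows a level of up to 1.42, 1.27 and 1.49 CPM in libraries 1, 2 and 3 (3 counts, counting error only). The labels name no batch and do not say that the libraries come from separate mice, so their spread may be technical. CPM rank genes by reads and not by transcripts, because a long transcript gives more reads than a short one at the same number of molecules. Tet3, the gene floxed in these mice, had 93, 127 and 104 counts.

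Spread between the libraries exceeded counting noise for 4039 of the 8941 genes, or 45.2% (edgeR's goodness-of-fit test against a Poisson model, Benjamini-Hochberg adjusted). With 1 library fewer the test had less to work with: 2650 genes were called without library 1, 1610 without library 2 and 2672 without library 3. Library 2 stood somewhat apart. The log2 ratios of the passing genes had an SD of 0.58 between libraries 1 and 2 and 0.59 between libraries 2 and 3, against 0.52 between libraries 1 and 3. Between libraries 2 and 3, 871 genes differed by more than 2-fold, compared with 599 between libraries 1 and 3. Nevertheless, the 100 highest genes shared 93 to 96 members between any pair of libraries.

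The 6 markers that describe these cells were all well expressed. Pdgfra, the receptor used for the sort, had 1401, 1558 and 1246 counts, or 665, 660 and 618 CPM (648 ± 26 CPM, SD, n = 3). Ly6a, which encodes the stem cell antigen Sca-1, had 4569, 4274 and 4248 CPM, and Cd34, a sialomucin of stromal progenitors, had 1274, 1269 and 1241 CPM. Dcn, which encodes the collagen-binding proteoglycan decorin, had 17209, 17718 and 17115 CPM. The libraries were close to each other for all of these, with a CV (SD as a share of the mean) of 1.41% for Cd34 and 4.08% for Ly6a. Small as it was, the spread of Ly6a (adjusted p = 3.9e-06) and Dcn (adjusted p = 1.7e-05) exceeded counting noise, but not detectably that of Pdgfra and Cd34. Pi16, a marker of the Dpp4-high progenitors, was the most uneven of the 6 at 778, 593 and 629 CPM, with a CV of 14.7% (adjusted p = 4.7e-12 against counting noise). Lpl, which encodes lipoprotein lipase, had 5444, 5303 and 5654 CPM and ranked 10 among all genes by reads. Its spread too was beyond counting noise (adjusted p = 4.7e-05).

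The highest ranks were held by matrix genes. Malat1, a long non-coding RNA kept in the nucleus, came first with 26339, 22433 and 26618 CPM, lowest in library 2. Gsn, which encodes the actin-severing protein gelsolin, followed with 20572, 21678 and 19845 CPM. Then came Col1a1, Dcn, Col3a1, Col1a2, Sparc, Timp2 and Fn1, so that 7 of the 9 highest genes belonged to the matrix lists. The 10 highest genes together took 14.7% to 14.9% of the counts of a library, and the 100 highest took 31.9% in each. Of the 25 highest genes 11 were matrix genes, and these took 11.1% of the reads. Among the 100 highest there were 31, with 14.2% of the reads.

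**Figure D1:**
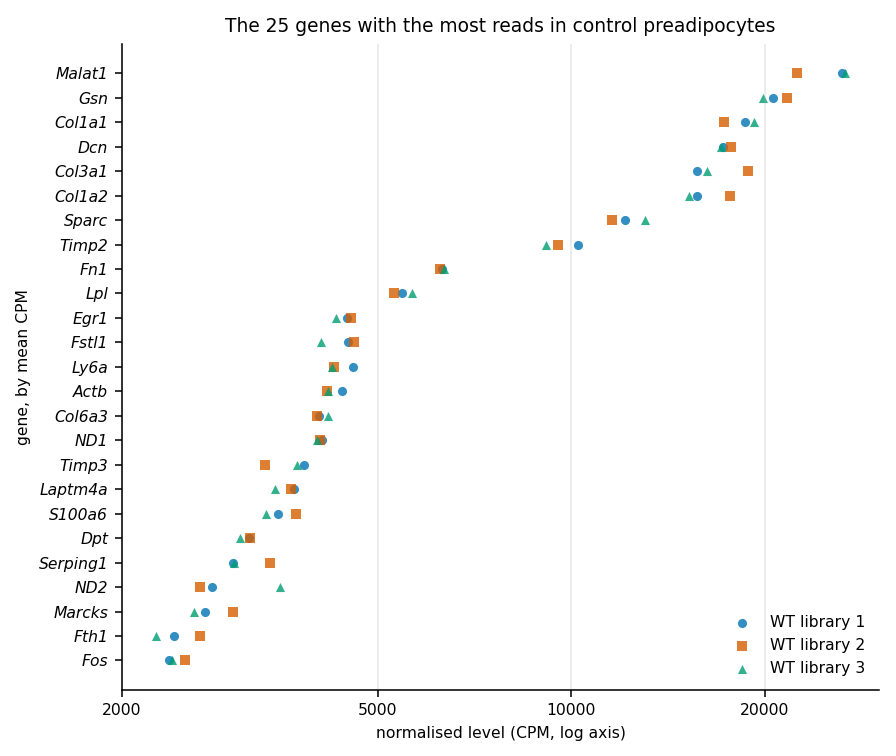
Level of the 25 genes with the most reads, in CPM on a log axis, with 1 point for each of the 3 WT libraries. Malat1 is lowest in library 2 at 22433 CPM, while Fn1 and ND1 show points that nearly coincide.

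Other genes of the first 25 have roles outside the matrix. Fstl1, which encodes a secreted follistatin-like glycoprotein, had 4494, 4594 and 4077 CPM. Actb, which encodes cytoplasmic actin, had 4402, 4167 and 4177 CPM, and Laptm4a, a lysosomal membrane protein gene, had 3698, 3668 and 3457 CPM. These 3 genes varied by a CV of 3.13% to 6.24%. S100a6, which encodes a calcium-binding protein, had 3499, 3725 and 3352 CPM. Marcks, a substrate of protein kinase C at the membrane, had 2695, 2972 and 2587 CPM, and Fth1, the heavy chain of ferritin, had 2410, 2643 and 2262 CPM. All 3 were highest in library 2 and lowest in library 3. The mitochondrial genes ND1 and ND2, subunits of respiratory complex I, differed in steadiness, with 4097, 4066 and 4024 CPM for ND1 and 2758, 2645 and 3526 CPM for ND2.

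In the fibrillar collagens, the rope-like proteins that give the tissue its strength, 7 of 11 genes passed and 2, Col24a1 and the cartilage collagen gene Col2a1, had no count. Col1a1 had 18625, 17300 and 19242 CPM (18389 ± 993 CPM). Col1a2, whose product joins that of Col1a1 in the type I helix, had 15677, 17671 and 15237 CPM. Library 2 was therefore the lowest for Col1a1 and the highest for Col1a2. Col3a1, the type III chain, had the pattern of Col1a2 in being highest in library 2, with 15685, 18840 and 16273 CPM. The type V genes Col5a3, Col5a1 and Col5a2, which set fibril diameter, had means of 1753, 1634 and 1439 CPM. The summed level of the list was 54890, 58740 and 55600 CPM.

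Collagens that do not form such fibrils were led by type VI, which makes beaded filaments around cells. Col6a3 had 4046, 4023 and 4182 CPM and a CV of 2.10%. Col6a2 had 1867, 1683 and 2288 CPM and Col6a1 had 1130, 1273 and 1342 CPM, both highest in library 3. Col14a1, a fibril-associated collagen, had 947, 1060 and 968 CPM, and Col16a1 210 ± 21 CPM. Of the 23 genes of this list with a row, 10 passed, and Col10a1, Col17a1, Col19a1, Col22a1, Col6a4 and Col9a1 had no count. Basement membrane genes were expressed as well, with 18 of 23 passing. Col4a1 had 2244, 2099 and 2294 CPM, and Nid1, which encodes the linker protein nidogen, had 2170, 2208 and 2238 CPM. Col15a1, Col4a2 and the laminin gene Lamb1 had means of 982, 957 and 681 CPM and were lowest in library 2. The laminin alpha genes Lama1, Lama3 and Lama5 had no count, whereas Lama2 and Lama4 had 582 ± 77 and 499 ± 58 CPM.

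Small leucine-rich proteoglycans, which coat collagen fibrils, drew 74.9% of their summed level from Dcn. Bgn (biglycan) had 1677, 1430 and 1732 CPM, Lum (lumican) had 1516, 1474 and 1444 CPM, and Ogn (osteoglycin) had 1059, 1416 and 1171 CPM. Bgn was lowest and Ogn highest in library 2. Prelp had 605 ± 38 CPM, and 10 of the 15 genes passed. Elastic fibre genes passed in 18 of 20 cases, and their summed level was the steadiest of the matrix lists, at 7708, 7649 and 7737 CPM. Fbn1, which encodes the microfibril protein fibrillin-1, had 1780, 1474 and 1779 CPM. Loxl1, Mfap5, Eln (elastin) and Lox had means of 838, 820.5, 709 and 647 CPM. Lox, which encodes the cross-linking enzyme lysyl oxidase, was almost level at 644, 654 and 642 CPM.

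Matricellular and adhesive proteins passed in 22 of 27 cases. Sparc, which encodes a collagen-binding glycoprotein, had 12116, 11580 and 13034 CPM. Fn1, fibronectin, had 6302, 6244 and 6349 CPM, the steadiest of the 10 highest genes with a CV of 0.836%. Dpt, dermatopontin, had 3153, 3159 and 3058 CPM. For neither Fn1 (adjusted p = 0.466) nor Dpt (adjusted p = 0.186) was the spread beyond counting noise detectable. Postn (periostin) and Smoc2 were uneven, with 1220, 1500 and 1040 CPM for Postn and 1095, 1499 and 1094 CPM for Smoc2, both highest in library 2. Comp and Npnt had no count, and Spp1 (osteopontin) had 14, 7 and 2.

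Matrix proteases and their inhibitors were present together. Timp2 and Timp3 encode tissue inhibitors of metalloproteinases, with 10234, 9536 and 9129 CPM for Timp2 and 3844, 3344 and 3745 CPM for Timp3. The metalloproteinase genes Mmp14, Mmp3 and Mmp2 had means of 1743 ± 175, 1580 ± 103 and 1503 ± 137 CPM. Serping1, which encodes the inhibitor of complement C1 proteases, had 2972, 3403 and 2990 CPM. Of 32 genes 29 passed, and Mmp9 had no count. Of all 151 matrix genes 114 passed, and the 151 together took 16.5%, 16.9% and 16.7% of the reads of the 3 libraries. All 30 genes of the list of chaperones and enzymes that fold and process secreted proteins passed. Its first members were Hspa5, the endoplasmic reticulum chaperone BiP, with 1729, 1667 and 1854 CPM, the procollagen processing enhancer gene Pcolce with 1115 ± 60 CPM, and the collagen chaperone gene Serpinh1 with 800.5 ± 16.6 CPM.

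Secreted signals, 214 genes of which 100 passed, took a smaller share of 3.06% to 3.19% of reads. Among complement genes, C3, the central component, had 2443, 2148 and 2676 CPM, lowest in library 2. C1ra and C1s1, the proteases that start the classical pathway, had 1687 ± 146 and 940.5 ± 59.3 CPM, and C4b 561 ± 73 CPM. In all, 12 of 27 genes of the list passed. C1qa and C1qc, products of macrophages, had no count, and neither did the terminal component genes C8a, C8b and C9 or the pentraxin genes Apcs and Nptx1.

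Chemokine genes passed in 13 of 34 cases. Cxcl12, which holds haematopoietic cells in stromal niches, had 524, 601 and 514 CPM. Cxcl1, a neutrophil attractant, had 426, 578 and 391 CPM, and Cxcl14 had 470, 379 and 462 CPM. Ccl7 and Cxcl13 had means of 165 ± 42 and 112 ± 17 CPM. Spread exceeded counting noise in 9 of the 13 genes that passed (69.2%), against 45.2% of all 8941 genes. Such a share was not particular to chemokines. It was 71.4% in fibrillar collagens and 70.0% in the list of secretory chaperones and enzymes, but 36.4% in interleukins and haematopoietic cytokines. The summed chemokine level was highest in library 2, at 2294 CPM against 2050 in library 1 and 1904 in library 3. Of the 16 chemokine genes at 0, Ccl3, Ccl4, Ccl17, Ccl22 and Pf4 are typical of leukocytes or platelets. Among cytokines, Csf1, the growth factor of macrophages, had 185, 316 and 214 CPM, Il33, an alarmin, had 157, 171 and 127 CPM, and Kitl (stem cell factor) had 95.9, 119 and 137 CPM. Il6 was low, with 47, 109 and 50 counts, and Il1a, Il1b, Csf2, Csf3 and Osm had none.

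Growth factor genes passed in 18 of 39 cases. Igf1, which encodes insulin-like growth factor 1, had 457, 431 and 543 CPM. Vegfd had 250, 299 and 262 CPM, and the ligands of TAM receptors Pros1 and Gas6 had 247 ± 26 and 240 ± 15 CPM. Vegfa, a main angiogenic factor, had 120, 89.4 and 74.5 CPM. Fgf21, Nrg1, Nrg4, Areg and Pdgfb had no count. IGF-binding proteins were more prominent in reads than Igf1 itself, with 2252, 2429 and 1974 CPM for Igfbp5, 1823, 1747 and 1836 CPM for Igfbp4, and 827 ± 82 CPM for Igfbp7. Igfbp6 and Igfbp3 had 453 ± 27 and 33.1 ± 9.3 CPM, and Igfbp1 had no count.

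Of the TGF-beta and BMP ligands and antagonists, Fstl1 carried 68.5% of the summed level. Gdf10 had 470, 528 and 474 CPM, Bmp1, a procollagen proteinase, had 463 ± 28 CPM, the BMP antagonist gene Chrdl1 had 278 ± 13 CPM and Twsg1 had 188 ± 21 CPM. Tgfb2 had 146 ± 18 CPM, while Tgfb1 had only 2, 5 and 2 counts. Gdf5, Grem1 and Mstn were at 0. In the Wnt group the secreted inhibitors came first, with 916, 1009 and 973 CPM for Sfrp2 and 371, 433 and 328 CPM for Sfrp4. Wnt5a had 189, 163 and 185 CPM, Sfrp1 129 ± 27 CPM and Wnt2 89.6 ± 10.1 CPM. Of 32 genes in the group 13 passed, and 9, among them Wnt3, Wnt3a, Wnt7a, Wnt7b and Dkk1, had no count.

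Adipokines of mature fat cells had at most 2 counts in any library. Adipoq had 2, 0 and 0 counts, Cfd (adipsin) 1, 0 and 0, and Lep and Retn had none. The adipokine and lipid carrier genes that were expressed were Angptl2 with 814, 765 and 892 CPM, Rarres2 (chemerin) with 629, 702 and 639 CPM, and Apod with 632, 608 and 628 CPM. Metrnl and Apoe followed with 277 ± 38 and 188 ± 2.2 CPM. In total, 11 of the 22 genes passed.

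**Figure D2:**
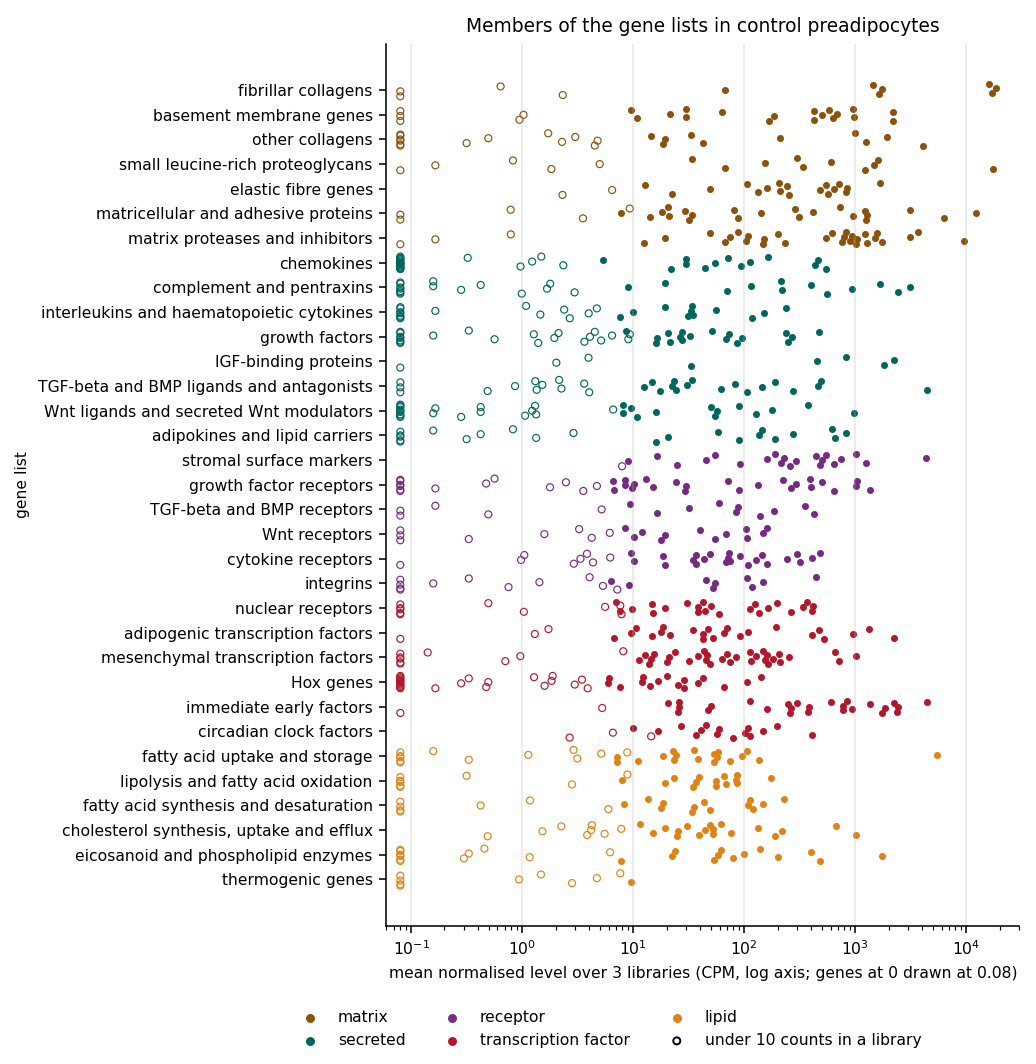
Mean level over the 3 WT libraries of every member of the matrix, secreted, receptor, transcription factor and lipid lists, in CPM on a log axis, with filled points for genes with 10 or more counts in each library and open points for the others. Fibrillar collagens reach the highest levels, whereas chemokines, Wnt ligands and Hox genes hold many members at or near 0 beside expressed ones.

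The receptor lists took 2.14% to 2.21% of reads, and 93 of their 139 genes passed. They include the surface markers of fat stroma, among them Ly6a with a mean of 4363 CPM, so the share is not that of receptors alone. Nuclear receptors were counted with the transcription factors instead. Of the growth factor receptors, Ddr2, a receptor for fibrillar collagen, had 1491, 1369 and 1254 CPM, and Axl, the receptor of Gas6, had 1019, 1067 and 1013 CPM. Lrp1, a large endocytic receptor, had 978, 1093 and 991 CPM. All 3 had a CV of at most 8.64%. Ddr2 (adjusted p = 2.8e-08) and Lrp1 (adjusted p = 0.00089) nevertheless varied beyond counting noise, whereas for Axl this was not detectable. Pdgfra followed, and Fgfr1, a receptor for fibroblast growth factors, had 514, 543 and 440 CPM. Pdgfrb, the beta receptor, had 278, 274 and 323 CPM. Erbb4, Fgfr3, Fgfr4, Flt3, Kit and Epha2 had no count. Insr, the insulin receptor, had 21.4, 27.1 and 41.7 CPM, and Igf1r had 95.9, 92.3 and 81.9 CPM.

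The surface markers used to recognise fat stroma passed in 21 of 22 cases. Cd248 (endosialin) had 767, 678 and 769 CPM, and the tetraspanin gene Cd81 had 543 ± 21 CPM. Thy1, the CD90 antigen, had 225, 219 and 236 CPM. Among TGF-beta receptors, Tgfbr3 had 387, 480 and 401 CPM and Tgfbr2 had 333, 479 and 255 CPM. The CV of Tgfbr2 was 32.0%, with library 2 highest. Bmpr2 and Acvrl1 had 187 ± 14 and 139 ± 26 CPM, Bmpr1a 87.6 ± 3.6 CPM, and Acvr1b and Acvr1c no count. Wnt receptors were led by Ryk at 160 ± 13, Lrp6 at 148 ± 29 and Fzd2 at 105 ± 9.3 CPM, followed by Fzd4 and Fzd1.

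Cytokine receptor genes passed in 23 of 31 cases. Il11ra1 had 506, 462 and 472 CPM, Ifngr1 had 432, 355 and 427 CPM, and Tnfrsf1a had 315, 353 and 291 CPM. Il6st, which encodes the shared signal chain gp130, was level at 298, 299 and 300.3 CPM. Il1r1, the receptor of interleukin-1, had 245 ± 24 CPM, so that receptors for interferon, tumour necrosis factor and interleukin-1 signals were all expressed. Lepr, the leptin receptor, had 2, 4 and 1 counts, and Il2rg had none. Among integrins, Itgb1 had 446, 438 and 460 CPM, Itgb5 148 ± 18 and Itgav 119 ± 14 CPM. The collagen receptor subunit gene Itga11 had 105 ± 8.3 CPM and Itgb7 54.3 ± 14.9 CPM. Itgb2, the leukocyte beta chain, Itga4, Itga3 and Itgb6 had no count.

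The transcription factor lists took 3.55% to 3.59% of reads, with 123 of their 173 genes passing. The share is not that of factors alone, because the list of immediate early genes also holds others, such as Dusp1. Most of that share belonged to the immediate early genes, which are switched on within minutes when cells are stimulated or dissociated. Egr1 had 4473, 4539 and 4308 CPM and ranked 11, and Fos had 2365, 2509 and 2395 CPM and ranked 25. Jun, the partner of Fos in the AP-1 complex, had 2355, 2362 and 2371 CPM. Klf4, a zinc-finger factor also active early in adipogenesis, had 2350, 2218 and 2172 CPM, and Dusp1, a phosphatase of MAP kinases, had 1731, 1965 and 1866 CPM. The CV of Jun was 0.334%, and the largest of these 5 was 6.36%, for Dusp1. The median CV of all genes at 1000 CPM or more was 5.82%. In the list as a whole, spread exceeded counting noise in 15 of the 26 genes that passed (57.7%), against 45.2% of all 8941 genes. Of 28 genes in the list 26 passed, Egr4 had no count, and the summed level was 22550, 23180 and 22340 CPM. The heat shock genes, which also respond to handling, all passed, 18 of 18, with a sum of 8546, 8091 and 8653 CPM. Which part of either sum arose during tissue dissociation and sorting was not tested.

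Promoter windows are shown for genes among the 100 highest by reads that hold the TATA box letters TATAAA at the usual distance from the start, and for 2 genes with other response motifs. Each covers the 100 bases before the RefSeq start site (GRCm38.p6), 5′ to 3′ on the strand of the gene, and capitals mark TATAAA, the cAMP response element core TGACGT or the AP-1 site TGACTCA, on either strand. Positions count back from the start site, with -1 the base before it.
Fos, chr12:85473790-85473889, + strand: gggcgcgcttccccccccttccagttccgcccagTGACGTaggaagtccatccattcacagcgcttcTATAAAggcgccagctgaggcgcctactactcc
Vim, chr2:13574211-13574310, + strand: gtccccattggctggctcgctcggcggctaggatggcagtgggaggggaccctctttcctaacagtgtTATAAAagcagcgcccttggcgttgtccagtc
Igfbp4, chr11:99041144-99041243, + strand: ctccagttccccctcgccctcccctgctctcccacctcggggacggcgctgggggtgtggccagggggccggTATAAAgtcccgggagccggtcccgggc
Postn, chr3:54361007-54361106, + strand: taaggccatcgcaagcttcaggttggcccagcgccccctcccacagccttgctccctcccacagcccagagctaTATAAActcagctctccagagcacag
Mmp3, chr9:7445722-7445821, + strand: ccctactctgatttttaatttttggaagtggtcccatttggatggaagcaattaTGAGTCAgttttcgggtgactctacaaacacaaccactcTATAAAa
Atf3, chr1:191183334-191183433, - strand: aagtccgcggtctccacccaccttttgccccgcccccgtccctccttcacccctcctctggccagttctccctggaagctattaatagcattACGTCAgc

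TATAAA began at -33 in Fos, -32 in Vim, which encodes the filament protein vimentin, -28 in Igfbp4 and -26 in Postn. In Mmp3 it began at -7 and TGACTCA, read on the other strand, at -46. In Atf3, a stress-response factor with 260.5 ± 14.1 CPM whose window lies on the minus strand, the core TGACGT was read on the opposite strand at -8, and in Fos it began at -66. TATAAA on the coding strand with its first base 40 to 20 bases before the start was present in 4 of the 82 promoters given for 70 of the 100 highest genes (4.88%), in 1.09% of the 8923 promoters of genes that passed, and in 1.99% of all 32851 promoters in the table. The core TGACGT was looked for on either strand of the 250 bases before the start. It was present in 10 of the 28 promoters given for 22 of the immediate early genes that passed (35.7%). Its share was 9.76% for the 100 highest genes, 10.4% for genes that passed and 6.47% for all promoters. TGACTCA, counted the same way, was present in 0 of the 28 immediate early promoters. It was present in 8.54% of promoters of the 100 highest genes, 3.18% of those of genes that passed and 4.46% of all. Promoters of 1 gene overlap where it has several starts, and letters in a window do not show that a factor binds.

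The list of factors of the adipocyte programme was led by Klf4, followed by Nfib with 1383, 1371 and 1226 CPM. Next came Nfia with 1036, 883 and 958 CPM, Ebf2 with 486, 539 and 533 CPM, and Cebpd with 444, 492 and 485 CPM. Further down, Cebpb had 92.4 ± 10.4, Egr2 46.9 ± 6.1, Zfp423 34.4 ± 11.7 and Klf5 6.71 ± 1.58 CPM. Pparg, the nuclear receptor that drives adipocyte differentiation, had 26, 42 and 28 counts, or 14.7 CPM on average, and Cebpa had a mean of 18.5 CPM. Of the 26 genes of the list 23 passed, and Gata2, which blocks adipogenesis, had no count.

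Mesenchymal identity factors were led by Prrx1, a homeobox gene of limb and body wall mesenchyme, with 1022, 1034 and 993 CPM. Aebp1, Tcf4, Foxp1 and Zeb2 had 720 ± 33, 661 ± 34, 252 ± 19 and 212 ± 23 CPM. Tcf21, Wt1, Foxc2 and Scx had no count; Tcf21 and Wt1 mark visceral rather than subcutaneous fat stroma. The Hox genes, which record position along the body axis, were led by the Hoxc cluster: Hoxc6 with 155, 155 and 114 CPM, Hoxc8 with 94.5, 102 and 124 CPM, Hoxc10 with 58.9, 92.7 and 44.2 CPM, then Hoxc4 and Hoxc9 with 42.1 ± 11.5 and 38.5 ± 12.8 CPM. The most posterior members, Hoxa13, Hoxb13, Hoxc11, Hoxc12, Hoxc13 and Hoxd10 to Hoxd13, had no count, and 16 of 39 passed. Among nuclear receptors, Rora had 434, 378 and 420 CPM. Thra, a thyroid hormone receptor, had 367 ± 40 CPM and Nr3c1, the glucocorticoid receptor, 339 ± 12 CPM. Esr1, oestrogen receptor alpha, was steady at 126, 124 and 127 CPM, while Esr2 and Pgr had no count.

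Lipid genes took 1.41% to 1.46% of reads, and 77 of 129 passed. In uptake and storage, Lpl, which frees fatty acids from lipoproteins at the vessel wall, carried 86.6% of the summed level. Fabp4, a fatty acid carrier that rises as cells commit to adipocytes, had 105, 135 and 169 CPM. The lipid droplet coat genes Plin3, Plin2 and Plin4 had 106 ± 12, 95.2 ± 1.4 and 74.5 ± 4.8 CPM. Plin1 and Cidec, whose products coat the large droplet of mature fat cells, had no count. In each of the 3 libraries Lpl took more reads than the rest of its list together.

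Breakdown and oxidation of fatty acids showed moderate levels, with 176, 176 and 170 CPM for Mgll, which encodes monoglyceride lipase, and 86.9 ± 12.6, 86.2 ± 11.8 and 84.0 ± 5.5 CPM for Hadha, Abhd5 and Lipa. Cpt1a, which brings fatty acids into mitochondria, had 67.9, 54.2 and 82.9 CPM. Pnpla2 and Lipe, the main lipases of adipocytes, were low at 19.5 ± 7.0 and 7.87 ± 1.85 CPM. The beta-adrenergic receptor gene Adrb3 had no count. In fatty acid synthesis, Scd2 had 209, 244 and 239 CPM, Acly 148 ± 15, Elovl5 119 ± 12, Scd1 114 ± 12 and Fads1 108 ± 14 CPM. Of the thermogenic genes only Prdm16 passed, at 23, 23 and 16 counts, and Ucp1, Cidea, Elovl3 and Otop1 had none.

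Cholesterol genes were led by the endocytic receptor gene Lrp1, at 1021 ± 63 CPM, and by Npc2, which moves cholesterol out of lysosomes, with 650, 623 and 722 CPM. Hmgcs1, a synthetic enzyme, came next with 226, 169 and 257 CPM. The efflux gene Abca1 had 191, 217 and 166 CPM, and Vldlr had 135 ± 21 CPM. Of the phospholipid and eicosanoid genes, Plpp3, which degrades lysophosphatidic acid, had 1728, 1788 and 1723 CPM, Enpp2 (autotaxin), which makes it, had 391, 402 and 408 CPM, and its receptor gene Lpar1 had 472, 479 and 486 CPM. None of these 3 varied beyond counting noise, with adjusted p-values of 0.261, 0.742 and 0.856. Ptgs2, the inducible prostaglandin synthase, had 179, 271 and 157 CPM, highest in library 2, and Ptges had 151, 147 and 117 CPM.

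Markers of the 3 preadipocyte states were present together. For the Dpp4-high progenitors all 25 genes passed, with Timp2, Fn1, Fndc1, Cd34 and Ly6c1 first in reads, and Dpp4 itself had 446, 581 and 432 CPM. For the Icam1-high cells all 21 passed, led by Lpl, Col4a1, Sparcl1, Adamts5 and Smoc2. Icam1 had 73, 127 and 94 counts, and Dlk1, a preadipocyte surface factor, 20, 29 and 11. For the F3-high cells 16 of 17 passed, led by Cygb with 1749, 1534 and 1747 CPM, then Mgp, Eln, Gdf10 and Gpc3, and F3 had 81, 191 and 87 counts. Adamtsl2 had no count. The summed levels were 27490, 26810 and 25820 CPM for the progenitor list, 15660, 15880 and 16020 CPM for the committed list and 4869, 5133 and 4941 CPM for the regulatory list. Since several members are shared with the matrix lists, these sums do not give the shares of cells.

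Lymphocyte, macrophage and erythroid markers were at or near 0. All 13 lymphocyte genes with a row, the pan-leukocyte gene Ptprc among them, had no count. The macrophage list summed to 8.55, 3.81 and 9.93 CPM with 8 of 16 genes at 0, and Adgre1, Itgam and Lyz2 were among those. The erythroid list summed to 9.02, 2.12 and 4.96 CPM. Endothelial markers summed to 1409, 1349 and 1220 CPM, of which 88.0% was Ly6c1, also a marker of the progenitors. Of 15 genes 3 passed: Ly6c1, the angiopoietin receptor gene Tek with 133, 126 and 144 CPM, and Plvap with 14.2, 20.3 and 11.4 CPM. Kdr had 2, 30 and 1 counts, highest in library 2. Pecam1, which encodes CD31, had 2, 0 and 6 counts, Cdh5 1, 0 and 6, and Tie1, Egfl7 and Sox17 none. Of the mature adipocyte list only Plin4 passed. Pericyte and smooth muscle markers summed to 223, 185 and 190 CPM, and 4 of 14 passed. These were Abcc9, Notch3, Mylk and Kcnj8, with means of 99.5, 49.0, 34.1 and 7.39 CPM. Rgs5 had 8, 0 and 5 counts and Higd1b none. The Schwann and neuronal list summed to 893, 900 and 858 CPM, of which 84.6% was Pmp22. In all 6 of 14 genes passed, among them the myelin gene Mbp with 129, 163 and 115 counts, S100b with 90, 74 and 76 counts, and Cdh19, Ncam1 and Gap43 at lower levels, while Sox10, Mal and Foxd3 had no count. The mesothelial and epithelial lists each held counts for Krt19 alone, at 3, 11 and 9.

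Skeletal muscle genes were uneven between the libraries. Their sum was 146, 40.7 and 161 CPM. The erythroid, macrophage, pericyte and mature adipocyte sums were also lowest in library 2, the erythroid and macrophage sums at under 10 CPM in each library. The endothelial and Schwann sums were lowest in library 3, and the counts of Krt19 in library 1. Myh4, a fast myosin heavy chain gene, had 75, 21 and 90 counts, and Ttn, which encodes titin, 78, 25 and 78. Library 2 thus had less than libraries 1 and 3 in both genes, while the muscle progenitor genes Pax7, Myf5 and Myod1 had none. Of the 20 genes 4 were at 0 in every library, and 2 passed.

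**Figure D3:**
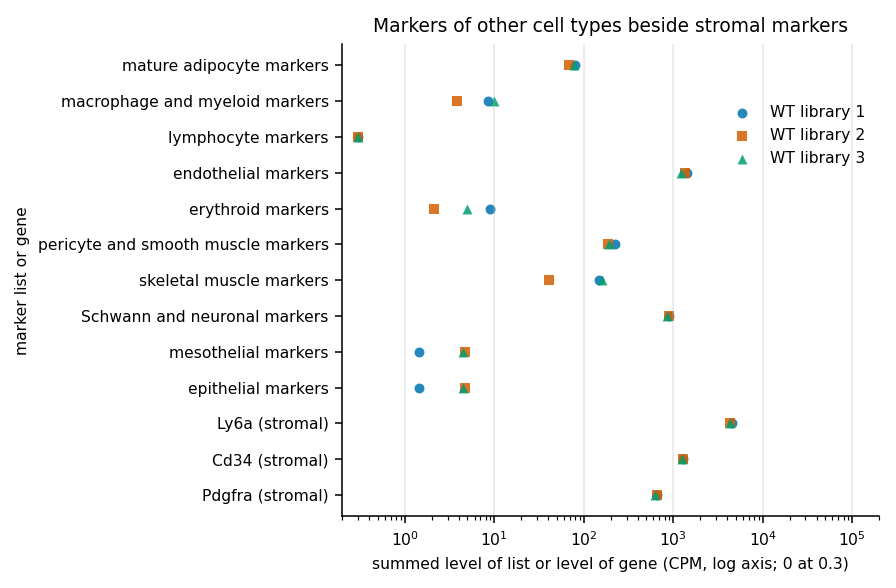
Summed level of each list of markers of other cell types, and the level of 3 stromal genes, in CPM on a log axis, with 1 point per WT library and 0 drawn at 0.3. Lymphocyte markers sit at 0, the skeletal muscle sum is lowest in library 2 at 40.7 CPM, and the endothelial sum rests mostly on Ly6c1.

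Spread between libraries fell with level. For the 687 genes under 10 CPM the median CV was 28.4% where counting alone would give 23.8%, and for the 105 genes at 1000 CPM or more it was 5.82% where counting would give 1.66%. The share of genes beyond counting noise rose from 14.3% to 76.2% between those classes. Over all 8941 genes the median CV was 19.1%, with the middle 50% between 11.1% and 30.8%. The biological coefficient of variation is the spread left after counting noise. Fitted as 1 value common to all genes, it was 20.7%. Fitted as a trend with level, it lay between 28.7% and 31.3% under 10 CPM and between 9.17% and 10.1% at 1000 CPM or more. Against the trend of dispersion with level, edgeR's goodness-of-fit test called 0 genes (0%) at an adjusted p under 0.05. The trend was estimated on these same genes and libraries, so few calls do not show that the libraries were alike. The smallest adjusted p was 0.415, and 432 genes, 4.83%, had an unadjusted p under 0.05.

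**Figure D4:**
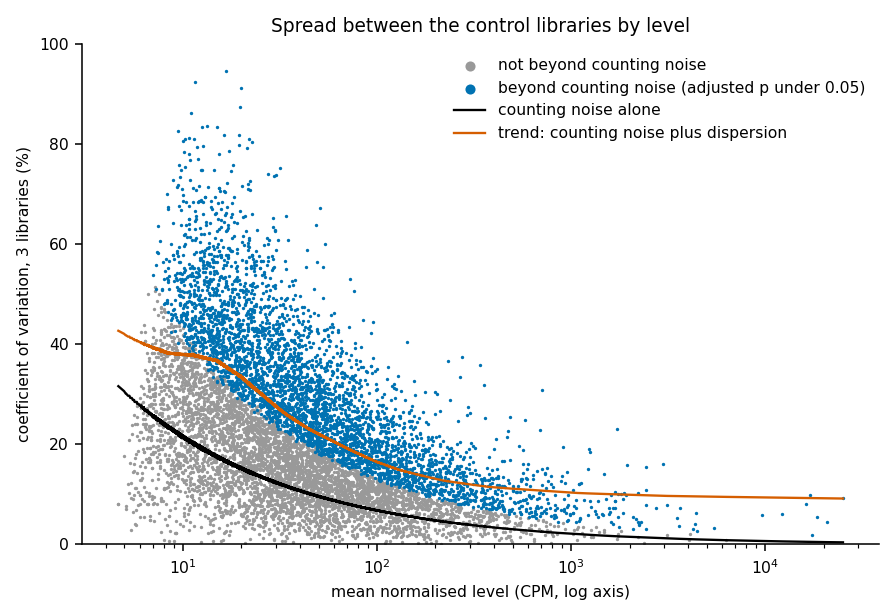
CV over the 3 WT libraries against mean level in CPM on a log axis, for the 8941 genes that passed. The black line is the CV that counting noise alone gives, and the orange line that of counting noise plus the dispersion trend. Genes at 1000 CPM or more have a median CV of 5.82%, and those under 10 CPM of 28.4%.

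The steadiest of the 500 highest genes held both housekeeping and regulated functions. After Nufip2, with 791, 789 and 794 CPM, and Jun came Stat3, a transcription factor of cytokine signals, with 334, 334 and 332 CPM. Loxl2, a matrix cross-linking enzyme gene, had 498, 495 and 501 CPM, and Ugdh, which makes the precursor of glycosaminoglycans, had 646, 639 and 645 CPM. The CV of these 5 lay between 0.305% and 0.626%. Utrn, Fn1, Rps20, ND1, Sfr1, Ahnak2 and Lox completed the 12 of smallest CV, all under 1%. Counting alone would give a median CV of 3.21% at 300 to 1000 CPM and 1.66% at 1000 CPM or more. These 12 were picked by their values, and counting noise alone could set which genes they are.

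The most uneven of the 500 highest genes, chosen after their values were seen, had mostly the same shape: 19 of the 20 with the largest CV were highest in library 2. Rpl30, a ribosomal protein gene, had 305, 473 and 238 CPM. Txnip, a glucose-responsive thioredoxin inhibitor gene, had 596, 954 and 560 CPM, and Efemp1, which encodes fibulin-3, had 402, 625 and 423 CPM. Eef1a1, which encodes a translation elongation factor, had 1578, 2163 and 1404 CPM, and Socs3, a feedback inhibitor of cytokine signals, 388, 592 and 435 CPM. The exception was Ywhab, with 350, 345 and 241 CPM, lowest in library 3. Over all 8941 genes library 2 was the highest in 36.0% and the lowest in 35.4%. At lower levels, Rpp14, Tpgs2 and Ercc2 had the largest CV among genes of at least 20 CPM, 81.0%, 80.4% and 79.3%, each highest in library 2 with 100, 101 and 97 counts against at most 35 in another library.

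The 79 cytosolic ribosomal protein genes, also looked at after the data were seen, summed to 28220, 30220 and 26810 CPM. Of these genes 55 were highest in library 2 and 47 were lowest in library 3. The 3 highest long non-coding RNAs went the other way, with 961, 821 and 968 CPM for Meg3 and 703, 608 and 750 CPM for Neat1 beside Malat1. The next in level did not: Gas5 was highest in library 2, and Kcnq1ot1 was lowest in library 1. The skeletal muscle sum was also lowest in library 2, where 35.4% of all 8941 genes were lowest. The part of muscle RNA or of these non-coding RNAs in the spread of other genes was not tested. Ribosomal protein genes and Eef1a1 have many near-identical copies in the mouse genome, so their counts are uncertain.

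**Figure D5:**
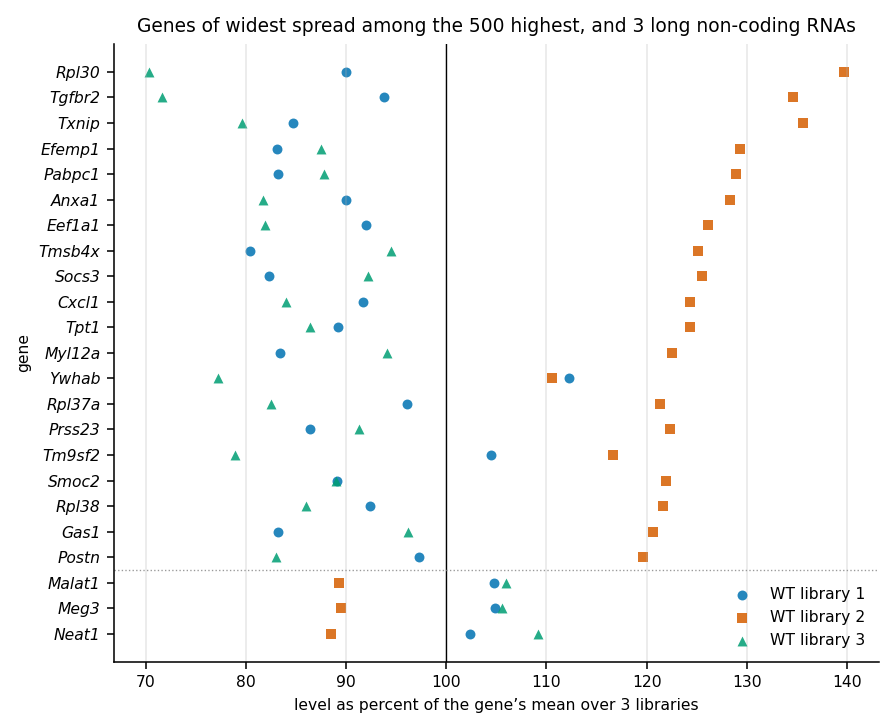
Level in each WT library as percent of the mean of the gene over the 3 libraries, for the 20 genes of largest CV among the 500 highest and for 3 long non-coding RNAs below the dotted line. Library 2 is highest for 19 of the 20 genes and lowest for Malat1, Meg3 and Neat1.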

How the data were processed

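The values are unnormalised counts of reads per gene, as deposited by the authors in 1 table of 3 WT and 3 KO libraries. The 3 WT libraries, grouped by their labels, are the ones used here; the KO libraries and the methylation table were not analysed here. Per the labels' protocols, poly(A) RNA was selected. The submitters' processing notes name HISAT2 (2.2.1), HTSeq (0.9.1), DESeq2 (1.36.0), Trim Galore (0.6.6) and Bismark (0.23.0), and the builds mm10, mm39 and GRCm39, with no step attached to any of them. The strand setting of the counting is not given in the sources at hand, so reads of a gene and of one that overlaps it on the other strand could not be separated.

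CPM were computed on TMM effective library sizes with edgeR 4.0.16 in R 4.3.3. A gene passed with at least 10 counts in each library. Spread was tested across all genes that passed with edgeR's goodness-of-fit test, against a Poisson model and against the trended dispersion (limma 3.58.1 loaded), with Benjamini-Hochberg adjustment at 0.05. The script was tested on simulated data. DESeq2 1.42.0 gave alternative size factors and dispersions. Other count minimums (5, 20 and 1), total counts as library sizes and leaving out each library were tried.

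The gene lists and the genes described were chosen with earlier results of these data known. Of 1124 list entries, 1121 matched a row, 5 of them by a RefSeq synonym. Of the entries without a row, Ccn1, Col21a1 and Trac were not analysed here. The rule named the 25 highest genes, up to 5 members of each list with the most reads, members at 0, the 12 genes of smallest coefficient of variation (CV, the SD over the mean) among the 500 highest, and the genes past the trend test, of which there were none. Other genes were named after their values were seen, and some results for single genes are left out. Gene lengths were not used, so CPM rank reads and not transcripts. Promoter sequences are RefSeq's on GRCm38.p6.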

Additional observations from a re-analysis of the deposited data

How the results depend on the processing

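The number of genes that passed was 9966, 7470 and 11429 with minimums of 5, 20 and 1 counts, and 9240 to 9289 with a library left out. The number whose spread exceeded counting noise fell with fewer libraries, to between 1610 (without library 2) and 2672 (without library 3) of those tested, against 4039 with all 3. The biological coefficient of variation of 20.7% became 22.4%, 18.4% and 24.95% with minimums of 5, 20 and 1 counts, 24.9% with DESeq2's dispersions, and between 17.4% (without library 2) and 22.3% (without library 1) with a library left out; the cause was not tested. No gene exceeded the trend under the 8 other minimums, library sizes and left-out libraries, with 351 to 612 genes at an unadjusted p under 0.05. Each time the trend was estimated anew on the libraries tested, so this repeats the limit of the main test. The summed levels of the 51 lists and the levels of the 28 genes followed through the alternatives moved by at most 1 SD under other library sizes. Leaving out 1 of 3 libraries can never move a mean by 1 SD, so that alternative could not test these levels. At 2002250 to 2374978 counts a library, genes under 10 CPM had a median counting error of 23.8%. No paired analysis was possible because the WT libraries were not compared with another group.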

Other observations

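Common reference genes were far from equal in these counts. Beside Actb, B2m had 2189, 2391 and 2280 CPM and Tuba1b 570, 545 and 648 CPM. Gapdh had 0, 0 and 1 counts, Eno1 1, 0 and 0, and Pgk1 9, 1 and 5, whereas Ldha, another glycolytic gene, had a mean of 99.2 CPM. Counts of genes with near-identical copies elsewhere in the genome are uncertain, and the treatment of reads that match several places is not stated in the labels.

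Genes of the mitochondrial genome were as uneven: ND4 had 2032, 2192 and 2243 CPM and CYTB 1733, 2104 and 1879 CPM, but COX3 had 27, 26 and 18 counts and COX2 23, 27 and 20. Together the 13 protein-coding genes summed to 11800, 12310 and 13050 CPM.

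Clock genes were expressed with wide spread. Rora led, then Nr1d2 with 186, 213 and 194 CPM, Tef with 149 ± 15 CPM, Per1 with 113, 86.0 and 140.5 CPM and Bhlhe40 with 109 ± 15 CPM. Arntl, which encodes BMAL1, had 7, 40 and 47 counts, Nfil3 21, 27 and 58, and Per2 53, 94 and 32. The median CV of the 15 genes that passed was 25.6%, against 19.1% for all genes. Proliferation genes were low: Ccnd1 led with 115, 97.4 and 124 CPM, Mcm6 and Mcm4 had means of 32.7 and 30.6 CPM, and Mki67 had 6, 13 and 17 counts. The Y-linked gene Ddx3y had 420, 565 and 521 counts and Xist none, as the male label states. Long non-coding RNAs took 3.23%, 2.79% and 3.31% of counts, and 106 of the 10037 listed as lncRNA passed. After Malat1, Meg3 and Neat1 came Gas5 with 254, 288 and 242 CPM and Kcnq1ot1 with 169, 193 and 220 CPM.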
